A study of Mus musculus with 10 samples.

Results

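Transcripts of 10 genes of the insulin-like growth factor (IGF) axis and of the hepatic response to growth hormone (GH) were followed in mouse liver. The genes were chosen by name from the 41388 genes in the count files, and each of the 10 passed the filter on low values, which kept 13444 genes. They code for the IGF-binding proteins Igfbp1, Igfbp2, Igfbp3 and Igfbp4, the hormone Igf1 and its carrier subunit Igfals, the GH receptor Ghr, and 3 genes that respond to the receptor, Socs2, Cish and Bcl6. Livers came from C57B/6J littermates aged 12 weeks, and poly-A RNA was sequenced. WT Refed mice (n = 2) were fasted for 22 h and then refed for 2 h, and WT Fasting mice (n = 3) were fasted for 24 h. NAMPT LKO Fasting mice (n = 5) were fasted for 24 h and lacked Nampt in hepatocytes. All mice carried the floxed Nampt alleles (Nampt LoxP/LoxP), and only NAMPT LKO mice carried Albumin-cre, which acts in hepatocytes from before birth. The paper describes the deletion as specific to hepatocytes, and whether other liver cells kept the gene was not tested here. The labels do not give the sex of the mice, and the paper's reporting summary describes the NAMPT LKO mice it used as male. The paper describes shorter fasting and random-fed controls, and the groups are named here as the sample labels give them.

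IGF-1 is made mainly by hepatocytes and circulates bound to a binding protein and to the acid-labile subunit, the product of Igfals, which keeps it in the blood. GH, which the pituitary releases in pulses, binds its receptor on hepatocytes and acts through the kinase JAK2 and the transcription factor STAT5, which raises Igf1, Igfals, Socs2 and Cish and lowers Bcl6. SOCS2 and CIS, the products of Socs2 and Cish, damp the receptor's signal, and BCL6 is a transcriptional repressor that binds some of the sites that STAT5 uses. Insulin lowers Igfbp1 and fasting raises it, in part through the transcription factor FOXO1, and its product binds IGF-1 in the blood for short periods. Food deprivation is known to lower IGF-1 and to make the liver less responsive to GH.

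Total counts ranged from 30603080 to 43434139 per library. Levels are given as CPM, read counts brought to a common library total, with edgeR's TMM factors, and a gene was called where the adjusted p of edgeR's quasi-likelihood test over all 13444 genes was at or under 0.05. Nampt was 11.6 to 15.1 CPM in the NAMPT LKO livers and 62.1 to 139.0 CPM in the WT livers, so the genotype labels held. It does not check the feeding labels, as the refed livers (76.9 and 66.8 CPM) lay inside the WT Fasting range. The summed level of 8 hepatocyte markers was 67719 to 114601 CPM in every library, and markers of the exocrine pancreas summed to at most 0.306 CPM. Both WT Fasting liver 3 and NAMPT LKO liver 5 stood apart from their groups. In the former, Nampt was 139.0 CPM against 62.1 and 72.3 CPM in the other WT Fasting livers, and 7.42% of counts were mitochondrial, the lowest share of the 10 libraries. In NAMPT LKO liver 5, 21.1% of counts were mitochondrial, against 7.42 to 12.9% in the other libraries. Its deviation from the mean of the other libraries fell with the GC content of the transcript (Spearman's rho -0.56 across genes, which are not independent). The labels name the libraries as separate samples, so p-values measure the spread between libraries.

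Between fasted and refed WT livers, Igfbp1 was the gene of the group that moved farthest, and Igfals, Cish and Ghr were lower in the fasted livers. Of the 10 genes 1 was called higher and 3 were called lower, whereas 7.04% of all genes tested were called (2.68% higher and 4.36% lower). Over all genes this was 360 higher and 586 lower, and with counts scaled by library totals alone 252 higher and 704 lower. The median log2 difference over the 10 genes was -0.24, against 0.04 over all genes tested. Groups did not overlap for 9 of the 10 genes, 4 with WT Fasting livers above and 5 below, but with 3 livers against 2 this held for 49.7% of all genes. Igfbp3 and Igfbp4 overlapped when counts were scaled by library totals alone. Set against the same WT Refed livers, NAMPT LKO Fasting livers gave calls for Igfbp1, Igfals, Cish and Ghr in the same directions (1 higher and 3 lower, with 11.2% of all genes called, 4.65% higher and 6.58% lower). This was 625 higher and 885 lower genes, or 367 and 1027 with library totals alone. Both comparisons share the refed livers. No NAMPT LKO livers were refed, so genotype and feeding differ together in the second. Both WT groups had fasted for 22 h or more, and no livers came from mice fed throughout. A fall with fasting and a rise with refeeding can thus not be told apart.

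**Figure D1:**
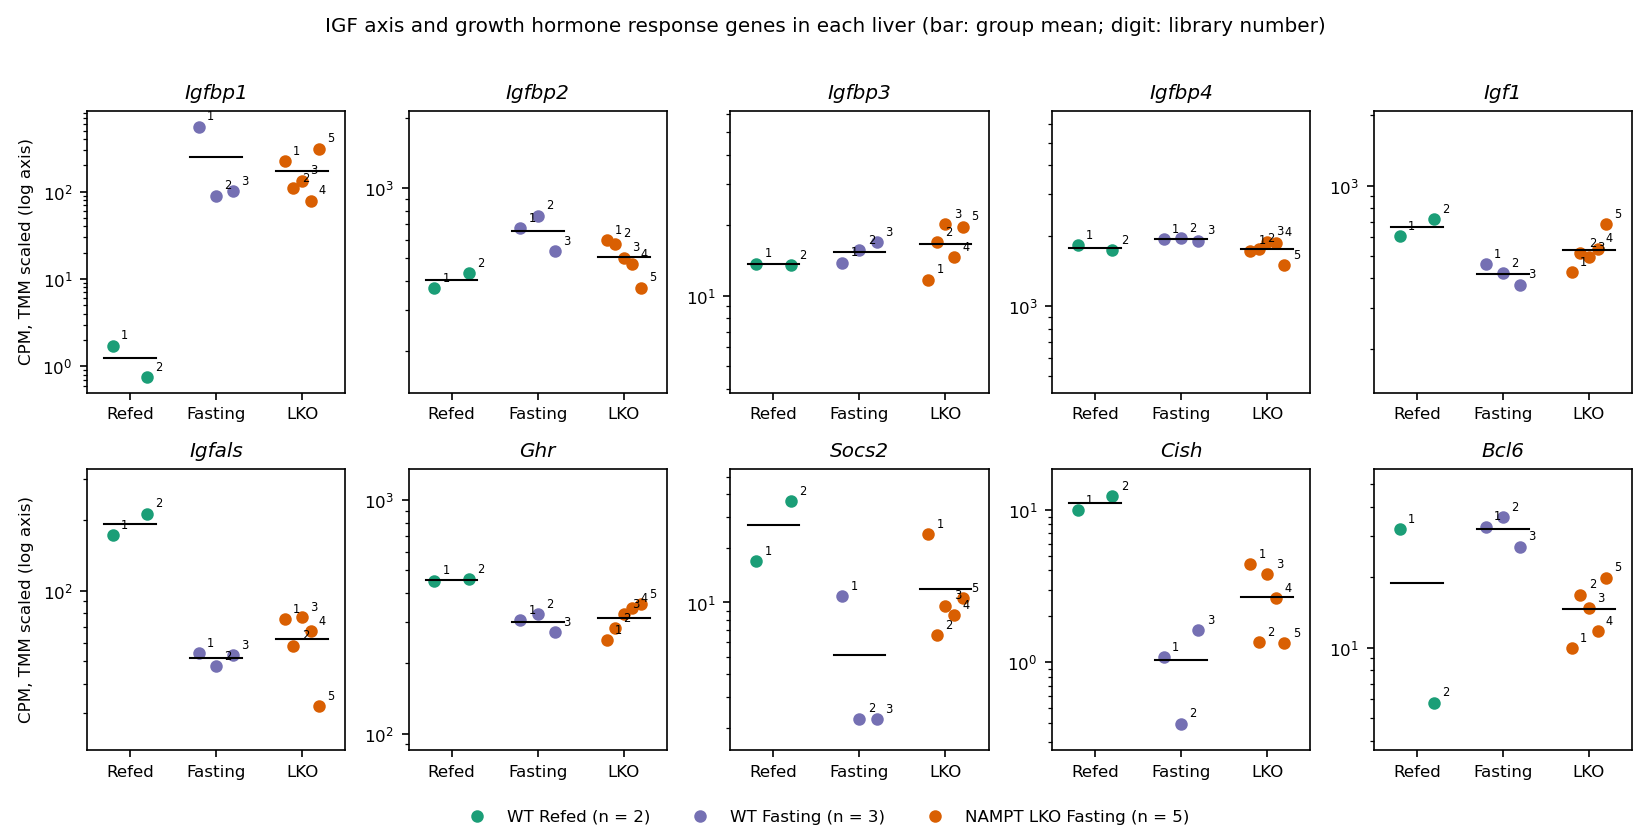
TMM-scaled CPM (log axis, with its own range in each panel) of the 10 genes in each library, grouped as WT Refed (n = 2), WT Fasting (n = 3) and NAMPT LKO Fasting (n = 5). Points are libraries with their number, and bars are group means. Igfbp1 lies at 1.72 CPM or less in both refed livers and at 78.5 CPM or more in every fasted liver, and Cish and Igfals lie highest in the refed livers.

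Among the binding proteins, Igfbp1 (ENSMUSG00000020429, chromosome 11 of GRCm38, 7197782 to 7202546, plus strand) was near the lower limit of these counts after refeeding. Its level was 1.72 and 0.750 CPM in the 2 refed livers, from 78 and 33 reads (exact 95% Poisson intervals 61.7 to 97.3 and 22.7 to 46.3 reads, which cover counting error only). In WT Fasting livers 1, 2 and 3 it was 554.9, 90.0 and 101.4 CPM, and in NAMPT LKO livers 1 to 5 it was 222.8, 110.4, 133.6, 78.5 and 311.1 CPM. Every fasted liver lay above both refed livers, and the fasted livers spread widely, with WT Fasting liver 1 far above the other two of its group. The fitted difference of WT Fasting from WT Refed livers was 7.65 on the log2 scale (standard error 1.13, 95% interval 5.15 to 10.1, adjusted p = 0.00376), a 200.3-fold higher level. For NAMPT LKO Fasting against WT Refed livers it was 7.11 (standard error 1.09, adjusted p = 0.00287). Without WT Refed liver 2 the call was lost in both comparisons, at log2 differences of 7.17 (adjusted p = 0.0685) and 6.64 (adjusted p = 0.0642).

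The start of Igfbp1 is shown because insulin and fasting act on it there in part through FOXO1. The window of 300 bases holds 250 bases before the RefSeq start site and 50 bases from that site onward (chr11:7197537-7197836, plus strand, GRCm38.p6). Capitals mark the FOXO-type motif CAAAACAA, searched on both strands, which stands at bases 143 to 150 of the window and is held by 2.51% of 32817 promoter windows.
Igfbp1: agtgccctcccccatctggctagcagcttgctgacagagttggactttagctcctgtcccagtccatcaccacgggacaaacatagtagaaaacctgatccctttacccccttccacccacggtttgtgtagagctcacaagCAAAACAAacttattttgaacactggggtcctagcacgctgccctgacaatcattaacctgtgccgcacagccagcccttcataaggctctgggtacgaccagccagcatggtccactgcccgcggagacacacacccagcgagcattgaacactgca
The other FOXO-type motif searched, GTAAACA, was not in this window and is held by 3.65% of windows. A match of letters is a description of the sequence, not a bound site.

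Igfbp3 (ENSMUSG00000020427) lies on the opposite strand of chromosome 11 (7206086 to 7213923), and its end is 3539 bases from the end of Igfbp1. Its product is the main carrier of IGF-1 in the blood, and in liver it is known from Kupffer and endothelial cells more than from hepatocytes. Igfbp3 was 13.7 and 13.5 CPM in refed livers, 13.8, 15.6 and 16.9 CPM in WT Fasting livers, and 11.7, 17.0, 20.3, 14.6 and 19.7 CPM in NAMPT LKO livers. These ranges lay close together while those of its neighbour were far apart. The difference of WT Fasting from WT Refed livers was 0.18 on the log2 scale (95% interval -0.29 to 0.66, adjusted p = 0.668), and that of NAMPT LKO from WT Fasting livers was 0.11 (95% interval -0.27 to 0.49, adjusted p = 0.911). Markers of Kupffer cells summed to 171 to 211 CPM in refed, 222 to 433 CPM in WT Fasting and 152 to 345 CPM in NAMPT LKO livers, and 0 of 6 were called in either comparison. Those of endothelial cells summed to 208 to 275 CPM over all libraries, with 0 of 7 called in either comparison. In NAMPT LKO Fasting against WT Refed livers 1 of 7 was called higher, beside 4.65% of all genes. In bulk liver, fewer cells of a type and less RNA per cell cannot be told apart.

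Igfbp2 (ENSMUSG00000039323, chromosome 1, 72824503 to 72852474, plus strand) and Igfbp4 (ENSMUSG00000017493, chromosome 11, 99041244 to 99054392, plus strand) were the abundant binding protein transcripts. Igfbp2 was 373 and 430 CPM in refed livers and 675, 761 and 537 CPM in WT Fasting livers, which did not overlap. In NAMPT LKO livers it was 599, 578, 504, 471 and 374 CPM, a range that reached both WT groups. The difference of WT Fasting from WT Refed livers (log2 0.71, 95% interval 0.24 to 1.18) missed the threshold in edgeR's quasi-likelihood test (adjusted p = 0.0722), whereas limma's voomWithQualityWeights and DESeq2 called it (adjusted p = 0.00122 and 0.0158, where these tools called 24.8% and 12.3% of all genes). Igfbp4 was 1814 and 1731 CPM in refed, 1924, 1947 and 1900 CPM in WT Fasting, and 1723, 1759, 1883, 1867 and 1490 CPM in NAMPT LKO livers. Its difference of WT Fasting from WT Refed livers was 0.12 on the log2 scale (95% interval -0.17 to 0.41, adjusted p = 0.642).

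Levels of different genes were compared as deposited RPKM, which divides CPM by the exonic length. Igfbp4 and then Igfbp2 had the highest mean RPKM in each group, and their ranges overlapped in NAMPT LKO livers alone. Igfbp1 had the lowest mean of the 10 genes after refeeding, 0.848 ± 0.474 RPKM (SD, n = 2), overlapping only Bcl6 of the other 9. In WT Fasting livers its mean ranked 3 of 10, at 165 ± 178 RPKM (SD, n = 3), overlapping Igfbp2, and in NAMPT LKO livers it ranked 3 of 10 at 108 ± 51.8 RPKM (SD, n = 5), overlapping Igfbp2 and Igf1. Below these, Igf1 had 42.5 ± 4.30 RPKM and Ghr 33.4 ± 2.15 RPKM in WT Fasting livers (SD, n = 3), with no overlap between them. Igfals ranked 3 of 10 after refeeding, at 95.8 ± 14.0 RPKM (SD, n = 2), and 6 of 10 in both fasted groups. Cish ranked last of the 10 in both fasted groups, where its range overlapped that of Socs2.

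Of the summed RPKM of Igfbp1 to Igfbp6, Igfbp1 made up 0.182 and 0.0779% in refed livers. It made up 31.0, 6.42 and 8.36% in WT Fasting livers and 16.8, 9.12, 10.96, 6.99 and 27.1% in NAMPT LKO livers. The sum itself was 650 and 659 RPKM in refed livers and 1193, 887 and 820 RPKM in WT Fasting livers. In NAMPT LKO livers it was 891, 798, 825, 739 and 641 RPKM, so that liver 5 of this group fell below both refed livers. The share of Igfbp4 was 62.1 to 66.2% after refeeding and 37.2 to 57.3% in the fasted livers.

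**Figure D2:**
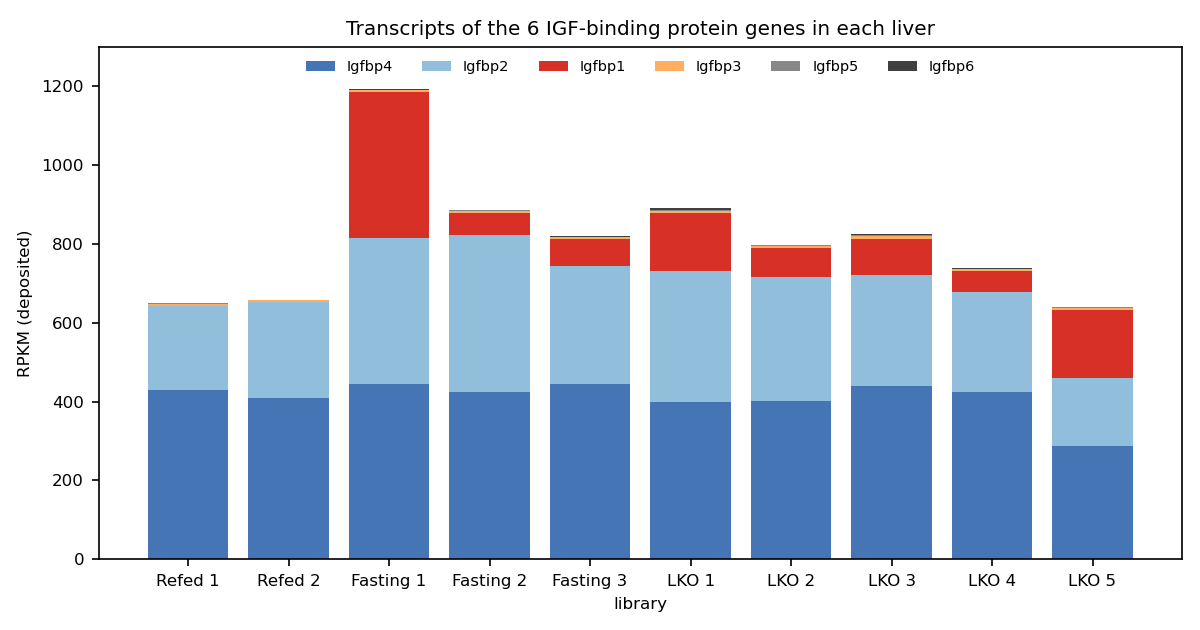
Deposited RPKM of Igfbp1 to Igfbp6 in each of the 10 libraries, stacked, with the full bar giving the sum. The red Igfbp1 segment is not visible in the refed livers (1.18 RPKM or less) and reaches 370.3 RPKM in WT Fasting liver 1, and Igfbp3, Igfbp5 and Igfbp6 are thin bands in every library.

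Igfals, which codes for the acid-labile subunit (ENSMUSG00000046070, chromosome 17, 24878770 to 24882008, plus strand) was 173 and 214 CPM in refed livers. It was 54.2, 47.6 and 53.1 CPM in WT Fasting livers and 75.5, 58.2, 77.1, 67.2 and 32.2 CPM in NAMPT LKO livers. Every fasted liver lay below both refed livers. The level was lower by 1.91 on the log2 scale in WT Fasting than in WT Refed livers (standard error 0.29, adjusted p = 0.00402 in edgeR's quasi-likelihood fit), a 3.75-fold difference. It was lower by 1.64 in NAMPT LKO Fasting than in WT Refed livers (standard error 0.25, adjusted p = 0.00287 in the same fit). Without WT Refed liver 2 these differences were -1.75 and -1.48 and were not called (adjusted p = 0.0538 and 0.0566).

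Igf1 (ENSMUSG00000020053, chromosome 10, 87858265 to 87937042, plus strand) was 605 and 718 CPM in refed, 461, 420 and 377 CPM in WT Fasting, and 424, 514, 492, 537 and 685 CPM in NAMPT LKO livers. WT Fasting livers lay below both refed livers, and NAMPT LKO liver 5 reached the refed range. The difference of WT Fasting from WT Refed livers was -0.66 on the log2 scale (standard error 0.19, 95% interval -1.07 to -0.25), and its adjusted p of 0.0597 (edgeR, quasi-likelihood) lay just over the threshold. It was called under 8 of 15 alternatives, limma's voomWithQualityWeights (adjusted p = 0.00231) and DESeq2 (adjusted p = 0.0115) among them. For NAMPT LKO Fasting against WT Refed livers the difference was -0.32 (95% interval -0.69 to 0.06, adjusted p = 0.27), and without NAMPT LKO liver 5 it was -0.43 and was called (adjusted p = 0.0338).

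Ghr (ENSMUSG00000055737, chromosome 15, 3317760 to 3583492, minus strand), the receptor through which GH reaches these genes, was 452 and 457 CPM in refed livers. It was 307, 326 and 271 CPM in WT Fasting livers and 252, 283, 326, 344 and 358 CPM in NAMPT LKO livers, all below both refed livers. The level was lower by 0.59 on the log2 scale in WT Fasting than in WT Refed livers (standard error 0.16), a 1.51-fold difference. Its adjusted p of 0.0497 (edgeR, quasi-likelihood) was barely under the threshold. Leaving out any 1 of these 5 livers ended the call, at log2 differences of -0.65 to -0.53 (the adjusted p was 0.212 without WT Refed liver 1, 0.273 without WT Refed liver 2, and 0.109, 0.0871 and 0.125 without WT Fasting livers 1, 2 and 3). In NAMPT LKO Fasting livers Ghr was lower by 0.54 than in WT Refed livers (standard error 0.14, adjusted p = 0.037 in the same fit). That call was lost without either refed liver or any of NAMPT LKO livers 1, 2 and 3 (differences of -0.56 to -0.47).

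Cish, which codes for the feedback inhibitor CIS (ENSMUSG00000032578, chromosome 9, 107296026 to 107302784, plus strand) was 9.99 and 12.3 CPM in refed livers and 1.09, 0.397 and 1.63 CPM in WT Fasting livers, the lowest of these from 13 reads (exact 95% Poisson interval 6.92 to 22.2). In NAMPT LKO livers it was 4.38, 1.36, 3.79, 2.62 and 1.34 CPM. Refed livers lay above every fasted liver, and 3 of the 5 NAMPT LKO livers lay above all 3 WT Fasting livers. Cish was lower by 3.40 on the log2 scale in WT Fasting than in WT Refed livers (standard error 0.57, adjusted p = 0.00665 in edgeR's quasi-likelihood fit), a 10.5-fold difference. It was lower by 2.04 in NAMPT LKO Fasting than in WT Refed livers (standard error 0.47, adjusted p = 0.0203 in the same fit). The first call was lost without WT Refed liver 2 (difference -3.24, adjusted p = 0.0646), and the second without either refed liver (differences -2.18 without liver 1 and -1.88 without liver 2, adjusted p = 0.103 and 0.192).

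Socs2 (ENSMUSG00000020027, chromosome 10, 95385362 to 95417180, minus strand) varied more within groups. It was 16.9 and 36.8 CPM in refed livers, 10.8, 2.26 and 2.26 CPM in WT Fasting livers, and 24.0, 6.57, 9.60, 8.51 and 10.6 CPM in NAMPT LKO livers. WT Fasting livers lay below both refed livers, and liver 1 was the highest of its group in WT Fasting and in NAMPT LKO mice, the latter inside the refed range. The difference of WT Fasting from WT Refed livers was -2.39 on the log2 scale (standard error 0.70, 95% interval -3.92 to -0.85, adjusted p = 0.067). Without WT Fasting liver 1 it was -3.57 and was called (adjusted p = 0.0169), and limma's voomWithQualityWeights and DESeq2 called it with all livers (adjusted p = 0.0105 and 0.0395).

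Bcl6 (ENSMUSG00000022508, chromosome 16, 23965052 to 23988852, minus strand) showed another order of groups. It was 33.0, 36.2 and 27.0 CPM in WT Fasting livers and 9.94, 16.8, 14.8, 11.8 and 19.9 CPM in NAMPT LKO livers, which did not overlap. The refed livers, at 32.0 and 5.82 CPM, lay on either side of the NAMPT LKO livers. The refed liver with the higher Bcl6 was the one with the lower Socs2 and Cish. The difference of WT Fasting from WT Refed livers was 0.76 on the log2 scale (95% interval -0.40 to 1.92, adjusted p = 0.434), and it turned on which refed liver was kept. Without WT Refed liver 1 it was 2.46 and was called (adjusted p = 0.0209), and without WT Refed liver 2 it was -0.00235 (adjusted p = 1.00).

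Starts of genes that STAT5 acts on are shown as in Igfbp1, with capitals marking the STAT5-type motif TTCNNNGAA (the same on both strands) or, once in Igfals, the reverse complement of GTAAACA. The table of promoter windows held 14 windows for 9 of the 10 genes. TTCNNNGAA stood in 5 of these windows, of Cish, Bcl6 and Igfals, and is held by 8.29% of the 32817 windows. In Cish it occurs 2 times, at bases 251 to 259 and 262 to 270, the first beginning on the RefSeq start site (chr9:107296409-107296708, plus strand, GRCm38.p6).
Cish: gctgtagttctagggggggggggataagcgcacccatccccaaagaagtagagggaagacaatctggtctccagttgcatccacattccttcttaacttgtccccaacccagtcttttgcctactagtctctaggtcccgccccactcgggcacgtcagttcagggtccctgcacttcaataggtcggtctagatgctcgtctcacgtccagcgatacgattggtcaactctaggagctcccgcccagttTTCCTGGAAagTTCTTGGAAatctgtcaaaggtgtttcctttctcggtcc
Bcl6 has 1 match in the window of the outer start (chr16:23988803-23989102, minus strand, written 5′ to 3′ along the gene) and 3 in that of the inner start (chr16:23981234-23981533, minus strand).
Bcl6 outer start: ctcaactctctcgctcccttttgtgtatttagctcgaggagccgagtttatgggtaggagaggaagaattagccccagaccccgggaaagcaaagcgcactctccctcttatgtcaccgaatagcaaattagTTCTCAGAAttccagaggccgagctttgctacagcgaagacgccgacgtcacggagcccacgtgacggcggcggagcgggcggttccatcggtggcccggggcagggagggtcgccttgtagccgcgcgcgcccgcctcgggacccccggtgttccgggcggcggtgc
Bcl6 inner start: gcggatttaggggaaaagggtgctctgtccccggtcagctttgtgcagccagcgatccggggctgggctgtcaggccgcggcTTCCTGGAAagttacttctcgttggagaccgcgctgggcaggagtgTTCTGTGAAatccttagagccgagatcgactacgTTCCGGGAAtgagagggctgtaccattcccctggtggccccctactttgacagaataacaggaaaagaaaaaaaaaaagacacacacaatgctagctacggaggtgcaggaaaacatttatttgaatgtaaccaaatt
Of the 3 windows of Igfals, 2 hold the motif, and the one printed (chr17:24877981-24878280, plus strand) has it at bases 193 to 201 and the complement of GTAAACA at bases 9 to 15.
Igfals: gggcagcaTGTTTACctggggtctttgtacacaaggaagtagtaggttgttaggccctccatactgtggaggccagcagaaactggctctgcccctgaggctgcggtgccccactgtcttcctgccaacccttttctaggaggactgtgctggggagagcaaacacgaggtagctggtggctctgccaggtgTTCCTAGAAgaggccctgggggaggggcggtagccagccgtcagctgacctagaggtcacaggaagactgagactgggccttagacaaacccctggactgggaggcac
No match was found in the windows of Igf1, Ghr, Igfbp2, Igfbp3 and Igfbp4, which says only that these letters are not there. Of the 3 genes with a STAT5-type match, Cish and Igfals were called lower and Bcl6 was not called in WT Fasting against WT Refed livers. There 4.36% of all genes were called lower, and Ghr, which has no match, was called lower as well. Socs2 was the gene without a window.

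**Figure D3:**
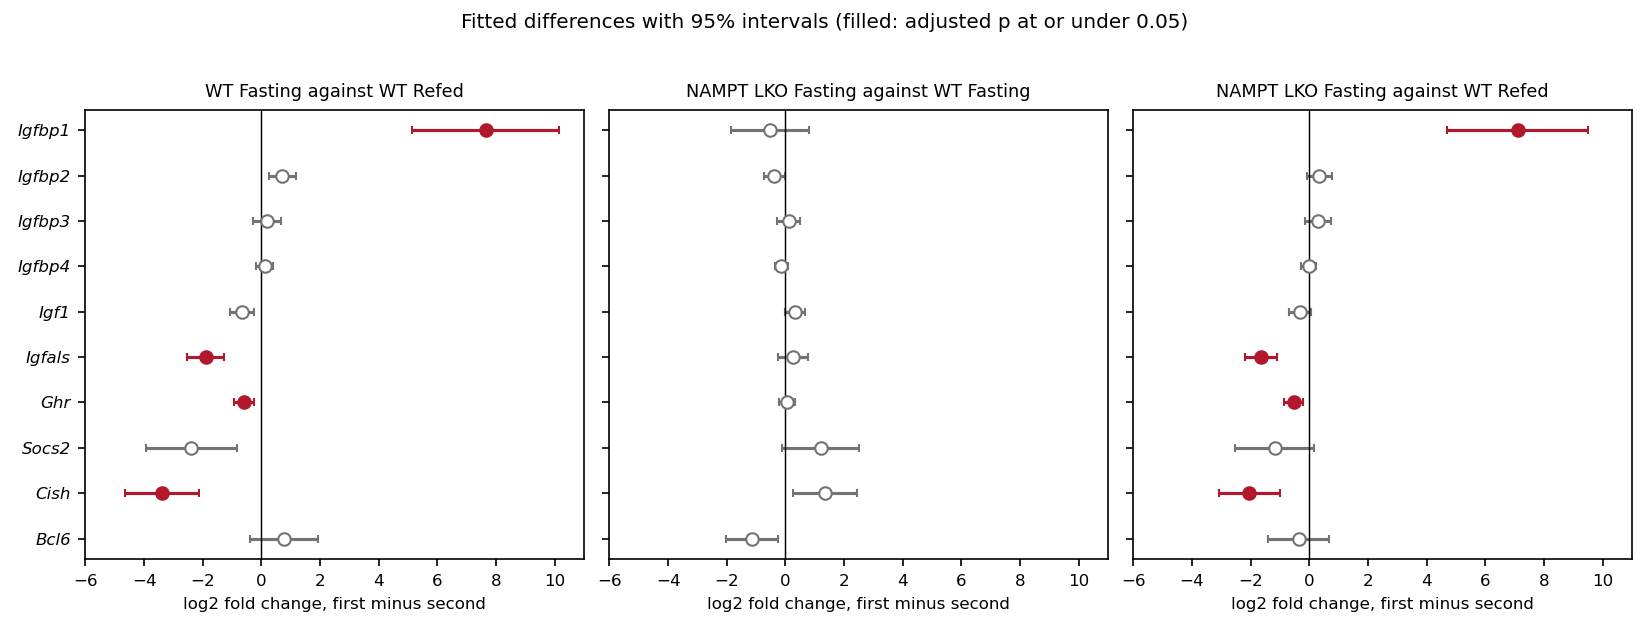
Fitted log2 fold changes of the 10 genes (points) with 95% intervals (bars) for WT Fasting against WT Refed, NAMPT LKO Fasting against WT Fasting, and NAMPT LKO Fasting against WT Refed livers. Filled red points were called at an adjusted p at or under 0.05 in edgeR's quasi-likelihood test. The left and right panels have 4 filled points each, Igfbp1 at 7.65 and 7.11 and Igfals, Ghr and Cish below 0, and the middle panel has none.

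The comparison of NAMPT LKO with WT mice after 24 h of fasting asks whether livers without hepatocyte NAMPT differ in the fasted state. With no fed or refed NAMPT LKO livers, a changed response to fasting cannot be told apart from a difference present before it. None of the 10 genes was called (0 of 10 by edgeR's quasi-likelihood test, its exact test, limma's voomWithQualityWeights and DESeq2), where 0.00744%, 0.179%, 0.00744% and 0.183% of all genes were called. The lowest adjusted p among the 10 was 0.798 in the quasi-likelihood fit with all livers (Cish), 0.372 by DESeq2 (Cish) and 0.586 by voomWithQualityWeights (Igfbp2), and 0.277 over all alternatives (Socs2, with a replicate block). At an unadjusted p under 0.05 there were 4 of the 10, against 6.03% of all genes tested. The median log2 difference of the 10 genes was 0.08, against 0.00 over all genes. NAMPT LKO livers did not overlap WT Fasting livers for 2 genes, Bcl6 and Igfbp4, both lower, where this held for 3.99% of all genes (2.12% lower). Igfbp4 overlapped when counts were scaled by library totals alone or with the GC trend removed, and Bcl6 did not.

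The difference in Bcl6 was -1.13 on the log2 scale (standard error 0.41, 95% interval -2.02 to -0.24, unadjusted p = 0.0179, adjusted p = 0.798 in edgeR's quasi-likelihood fit), with all 5 NAMPT LKO livers below all 3 WT Fasting livers. Over 20 alternatives, which reuse the same livers, the difference in Bcl6 ranged from -1.37 to -1.02. As the groups did not overlap, its sign could not change, so this is no further support. For Cish the difference was 1.35 (standard error 0.49, 95% interval 0.27 to 2.43, unadjusted p = 0.0187, adjusted p = 0.798), and for Socs2 it was 1.20 (standard error 0.59, 95% interval -0.10 to 2.51, adjusted p = 0.837). Without WT Fasting liver 1 the difference in Socs2 was 2.39, and it was still not called. Igfbp2 differed by -0.38 (95% interval -0.74 to -0.02, unadjusted p = 0.0423, adjusted p = 0.827) and Igf1 by 0.34 (95% interval 0.00 to 0.68, unadjusted p = 0.0483, adjusted p = 0.827). In each of these 5 genes the NAMPT LKO mean lay nearer to the WT Refed mean than the WT Fasting mean did, but the WT Fasting livers enter both differences, so this is no separate evidence.

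For the remaining genes the intervals reached both sides of 0. They were -1.87 to 0.79 for Igfbp1 (difference -0.54), -0.25 to 0.78 for Igfals (0.27), -0.23 to 0.34 for Ghr (0.05), -0.27 to 0.49 for Igfbp3 (0.11) and -0.37 to 0.09 for Igfbp4 (-0.14), all on the log2 scale. Igfbp1 rested on WT Fasting liver 1, without which its difference was 0.85. A p over the threshold does not show that the genotypes were alike, and for Igfbp1 the interval allows a difference of more than 1 log2 unit.

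Liver 5 of the NAMPT LKO group was described further by the base composition of the transcripts. Igfbp2 (GC content 62.1%) and Igfals (58.9%) were lowest of the 5 livers in liver 5, and Igf1 (38.0%) and Ghr (40.9%) were highest there. Against the mean of livers 1 to 4, liver 5 differed by -0.52 for Igfbp2, -1.10 for Igfals, 0.48 for Igf1 and 0.26 for Ghr on the log2 scale. After the dependence on GC content was taken out of every library, these values were 0.30, -0.51, 0.03 and -0.11. Igfbp1 (50.9%) differed by 1.30 before and 1.35 after. Leaving out both livers that stood apart gave 6 of the 10 genes called in WT Fasting against WT Refed livers, 0 in NAMPT LKO against WT Fasting livers and 6 in NAMPT LKO Fasting against WT Refed livers, where 17.3%, 0.00755% and 25.1% of all genes tested without them were called. Markers of cholangiocytes, the cells of the bile ducts, summed to 33.5 to 53.7 CPM in NAMPT LKO livers and to 15.0 to 22.0 CPM in WT Fasting livers (median log2 difference of 5 markers 1.64, 0 of 5 called), with 19.8 to 22.1 CPM in refed livers. In NAMPT LKO Fasting against WT Refed livers 2 of 5 cholangiocyte markers and 1 of 7 markers of stellate cells were called higher, where 4.65% of all genes were. Sums of the stellate cell markers were 225 to 295 CPM in NAMPT LKO, 184 to 239 CPM in WT Fasting and 186 to 187 CPM in refed livers. The part of these cells in the differences was not tested.

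**Figure D4:**
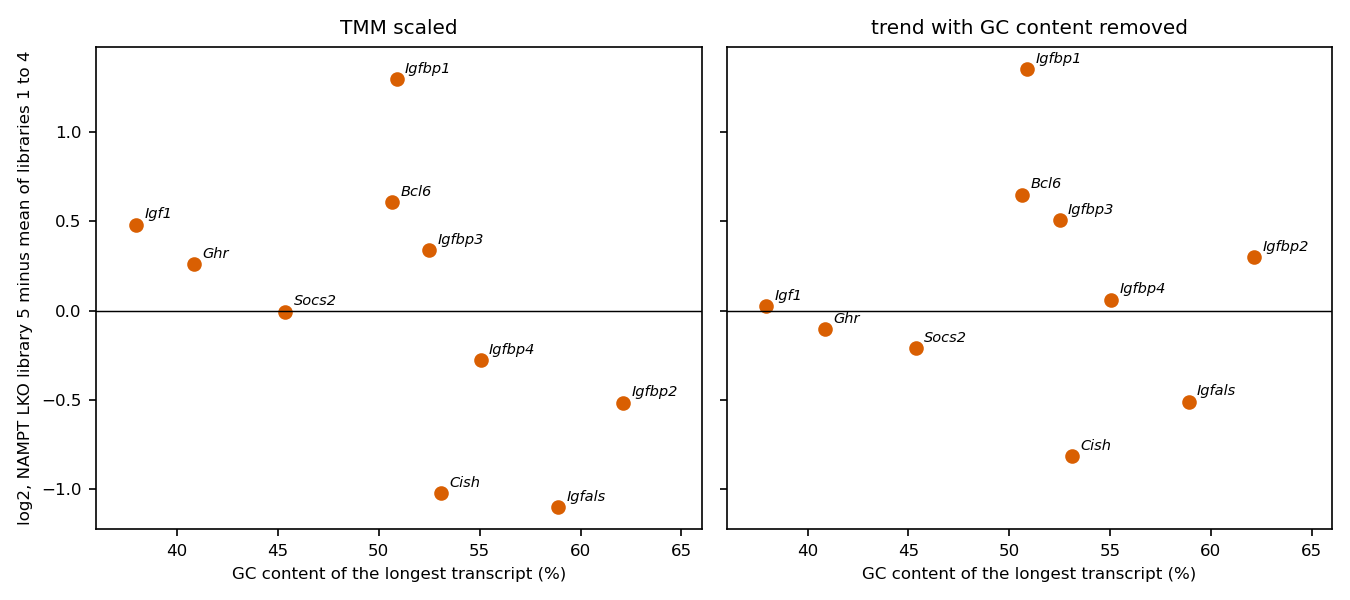
Log2 difference of NAMPT LKO liver 5 from the mean of NAMPT LKO livers 1 to 4 for each of the 10 genes, against the GC content of its longest transcript (percent). The left panel uses TMM-scaled levels and the right panel levels with the trend with GC content removed. Igf1 moves from 0.48 to 0.03 and Igfbp2 from -0.52 to 0.30, while Igfbp1 stays above 1 in both.

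The receptor's signalling chain was examined through a list of 11 genes, all of which passed the filter. In WT Fasting against WT Refed livers 0 were called higher and 1 lower, with a median log2 difference of 0.18 beside 0.04 over all genes tested, of which 2.68% were called higher and 4.36% lower. The one called was Prlr, the prolactin receptor and a relative of Ghr, at 126, 88.7 and 84.5 CPM in WT Fasting against 167 and 197 CPM in refed livers (log2 difference -0.87, standard error 0.22, adjusted p = 0.0354 in edgeR's quasi-likelihood fit). The call was lost without either refed liver (adjusted p = 0.119 without liver 1 and 0.282 without liver 2), without WT Fasting liver 2 (0.112) and without WT Fasting liver 3, one of those that stood apart (difference -0.77, adjusted p = 0.0889), where the median of the list was 0.07. Jak2, the kinase bound to the receptor, was 18.7, 16.7 and 20.6 CPM in WT Fasting and 14.5 and 13.2 CPM in refed livers (0.43, adjusted p = 0.0865). It was higher in NAMPT LKO Fasting than in WT Refed livers (0.53, standard error 0.13, adjusted p = 0.0232), where 4.65% of all genes were called higher. That call on Jak2 was lost with library totals alone (0.44, adjusted p = 0.109), without the filter (0.0777), without either refed liver (0.122 and 0.249) and without NAMPT LKO liver 3 (0.0502). Stat5a differed by 0.00 between WT Fasting and WT Refed livers (95% interval -0.34 to 0.35), and Stat5b by 0.42 (95% interval 0.05 to 0.79, adjusted p = 0.172). In NAMPT LKO against WT Fasting livers 0 of 11 were called.

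Of 14 further genes of the IGF system 9 passed the filter, and 0 of these were called in WT Fasting against WT Refed livers. There 2.68% of all genes tested were called higher and 4.36% lower. None of the 9 was called in NAMPT LKO against WT Fasting livers, where 0.00744% of all genes were. The median log2 differences were 0.43 and 0.07, beside 0.04 and 0.00 over all genes. Insr, the insulin receptor, had log2 differences of 0.43 between WT Fasting and WT Refed livers (adjusted p = 0.0661) and 0.51 between NAMPT LKO Fasting and WT Refed livers (adjusted p = 0.0206, called). The latter call was lost with library totals alone (0.41, adjusted p = 0.0585), without the filter (0.0561) and without either refed liver (0.171 and 0.181). In NAMPT LKO Fasting against WT Refed livers 2 of the 9 were called higher, where 4.65% of all genes were. Beside Insr this was Igfbp6 (2.09, adjusted p = 0.0498 in edgeR's quasi-likelihood fit), named after its values were seen. Igfbp6 passed the filter only through fasted livers, so its call carries no weight, and 8 of 17 alternatives called it. Igf1r, the IGF-1 receptor, was low in liver, with means of 1.29 CPM in refed, 1.90 CPM in WT Fasting and 1.63 CPM in NAMPT LKO livers. Igf2r, which carries IGF-2 to lysosomes, differed by 0.16 (95% interval -0.06 to 0.39) and 0.01 (95% interval -0.17 to 0.19) in the first and second of these comparisons. Htra1, a secreted protease that can cleave binding proteins, had the lowest p of the list between genotypes (0.92, adjusted p = 0.827), but it passed the filter through NAMPT LKO livers alone.

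Some liver genes are expressed more in male or in female mice because the sexes release GH in different patterns. Of 15 male-biased genes, 1 was called higher and 2 lower in WT Fasting against WT Refed livers, beside 2.68% and 4.36% of all genes. Elovl3, a fatty acid elongase, was 102, 151 and 107 CPM in WT Fasting and 36.7 and 37.7 CPM in refed livers (1.69, standard error 0.29, adjusted p = 0.00771). Hsd3b5, a steroid dehydrogenase, was 2.69, 5.68 and 1.83 CPM in WT Fasting against 33.7 and 40.4 CPM in refed livers (-3.46, standard error 0.43, adjusted p = 0.0015). Cyp7b1, an oxysterol hydroxylase, was lower as well (-1.24, standard error 0.27, adjusted p = 0.0197). Hsd3b5 was called under each of 15 alternatives. Elovl3 was not called without refed liver 1 or 2 (adjusted p = 0.0858 and 0.0914), nor was Cyp7b1 without refed liver 1, refed liver 2 or WT Fasting liver 2 (0.0769, 0.203 and 0.0751). Of 14 female-biased genes 10 passed the filter, and A1bg was called lower (-4.81, adjusted p = 0.0188), from 1.13 and 4.57 CPM in refed livers to 0.236 CPM or less in WT Fasting livers. A1bg passed the filter only through the refed livers, so its call carries no weight, and it was lost without WT Refed liver 2 (-3.49, adjusted p = 0.236), WT Fasting liver 2 (0.0593) or WT Fasting liver 3 (0.0525). Median log2 differences were 0.00 for the male-biased and 0.40 for the female-biased list.

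Neither list had a gene called between genotypes. The lowest p were those of Hsd3b5 (-1.03, adjusted p = 0.798), at 1.15, 1.39, 1.13, 2.44 and 2.13 CPM in NAMPT LKO livers, and of Cux2, a female-biased transcription factor (1.29, adjusted p = 0.801). In NAMPT LKO Fasting against WT Refed livers Elovl3 was called higher, and Hsd3b5, Cyp7b1, Selenbp2 and, with the same limit of the filter, A1bg were called lower, beside 4.65% and 6.58% of all genes. Selenbp2 (-2.23, adjusted p = 0.0107) was named after its values were seen. Calls were lost without WT Refed liver 1 for Elovl3 and Selenbp2 (adjusted p = 0.154 and 0.0987) and without WT Refed liver 2 for Elovl3, Selenbp2, Cyp7b1 and A1bg (0.176, 0.0758, 0.101 and 0.365).

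Of 9 regulators of the Igfbp1 promoter 0 were called higher and 1 lower in WT Fasting against WT Refed livers, beside 2.68% and 4.36% of all genes. The one called was Foxa2, a forkhead factor of hepatocytes, at 25.5, 41.1 and 38.3 CPM in WT Fasting and 69.3 and 79.4 CPM in refed livers (log2 difference -1.09, standard error 0.27, adjusted p = 0.035). Leaving out any 1 of these 5 livers ended the call on Foxa2, at differences of -1.22 to -0.91 (adjusted p = 0.132 and 0.251 without WT Refed livers 1 and 2, and 0.0986, 0.0595 and 0.0559 without WT Fasting livers 1, 2 and 3). Foxo1 was 54.5, 57.1 and 55.9 CPM in WT Fasting and 41.9 and 33.4 CPM in refed livers (0.57, 95% interval -0.02 to 1.16, adjusted p = 0.24). Between genotypes the lowest p was that of Foxa2 (0.43, adjusted p = 0.837), and Foxo1 differed by 0.16 (95% interval -0.31 to 0.63). In NAMPT LKO Fasting against WT Refed livers 1 of the 9 was called higher, beside 4.65% of all genes. This was the coactivator Ppargc1a (1.76, adjusted p = 0.0236 in edgeR's quasi-likelihood fit), which was named after its values were seen. It was not called without WT Refed liver 1 or 2 (differences of 1.69 and 1.84, each with 1 refed liver left).

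Similarity of pattern was described by Pearson's r of log2 CPM over the 10 libraries, among 8929 genes that had a symbol, a mean of at least 5 CPM and were no pseudogene. The libraries form 3 groups, so r reflects differences between groups as well as between livers, and it is given as a description. The most similar gene was Brap for Igfbp1 (r = 0.98), Coa3 for Igfals (0.99), Mtrf1 for Igf1 (0.97), Mettl9 for Ghr (0.96) and Klf9 for Igfbp3 (0.96). It was Rabep2 for Igfbp4 (0.96), Arid1b for Igfbp2 (0.93), Suco for Socs2 (0.92) and Utp15 for Cish (0.92). Among the 10 genes themselves, r was 0.79 between Socs2 and Cish, 0.88 between Cish and Igfals, and -0.65 between Socs2 and Bcl6. As deviations from the group means, these were 0.42, 0.68 and -0.41. Some other pairs changed sign within groups, from 0.42 to -0.71 for Igf1 with Igfals and from 0.52 to -0.55 for Igf1 with Cish. The largest r by size was that of Igfbp1 with Igfals, -0.90 over all libraries and -0.32 within groups. Cish and Igfals were both lowest of their group in NAMPT LKO liver 5. Their log2 differences from the mean of the other NAMPT LKO livers were -1.02 and -1.10. The part of this liver in their r was not tested. Igf1 and Ghr had r = 0.81 over all libraries and 0.77 within groups, and both were highest of their group in NAMPT LKO liver 5.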

How the data were processed

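Liver RNA from 10 mice was analysed. The authors selected poly-A RNA, sequenced single reads, aligned them to GRCm38 with STAR 2.5.1a and counted them per Ensembl gene with featureCounts 1.4.6-p5 (versions from the submitters' processing notes, where the paper's methods name others). Whether counting used strand is not given in the sources used here, so a gene and an antisense or overlapping partner cannot be told apart. The deposited counts were used unchanged. The CPM that the authors deposited are counts over the library total, and the deposited RPKM divide these by exonic length.

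Genes had to exceed 1 CPM in 1 library or more, and 4 rRNA genes were left out. After TMM scaling, edgeR 4.0.16 in R 4.3.3 fitted all 10 libraries together as 3 groups, and differences were tested by quasi-likelihood, with Benjamini-Hochberg adjustment over 13444 genes. Standard errors were derived from that test, as the size of the log2 difference over the square root of its F statistic. The 95% intervals use these with the t distribution. Alternatives were limma 3.58.1 (voomWithQualityWeights), DESeq2 1.42.0, edgeR's exact test, other scalings and filters, fits of the compared groups alone, each library left out in turn, and a block for replicate number. Taking out the dependence on GC content library by library (loess with a span of 0.5) and leaving out both livers that stood apart were added after seeing the data. GC content was known for 99.4% of tested genes. The quasi-likelihood test, voomWithQualityWeights and DESeq2 were tried on simulated counts with known changes, and the exact test was not. No libraries of a group agreed within sampling noise.

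The 10 genes, the lists and the markers were chosen with earlier results of these data known. All 10 genes are named, with list genes called in WT Fasting against WT Refed or NAMPT LKO against WT Fasting livers, the lowest p of each list between genotypes, Jak2, Stat5a, Stat5b, Igf1r, Igf2r, Insr and Foxo1, and the most similar genes. A few of the genes that this rule selects are not reported here. Promoter sequences are those of RefSeq (GRCm38.p6).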

Additional observations from a re-analysis of the deposited data

Results flagged for a closer look

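Socs2 in NAMPT LKO liver 1, at 24.0 CPM against 6.57 to 10.6 CPM in livers 2 to 5 of this group, stood farther from the nearest liver, relative to the spread of the 5 values, than the limit of 0.71 for 5 values. Of the 10 genes tested in this way in NAMPT LKO livers 1 was past that limit, where chance gives about 0.5. Cish was also highest in liver 1, at 4.38 CPM, and Bcl6 was lowest there, at 9.94 CPM. Mitochondrial counts made up 10.6% of that library, inside the range of its group.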

How the results depend on the processing

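Over the single-gene values of the 10 genes, 122 of 150 alternatives kept direction and call in WT Fasting against WT Refed livers, 192 of 200 in NAMPT LKO against WT Fasting livers and 146 of 170 in NAMPT LKO Fasting against WT Refed livers. In the first comparison 946 genes were called, against 3331 by voomWithQualityWeights, 1646 by DESeq2, 1478 with the GC trend removed, 1627 with the compared groups alone, 2293 without both livers that stood apart, and 106 to 781 when any 1 library was left out. Of the 10 genes 4 were called, against 7 by voomWithQualityWeights, 7 by DESeq2 and 0 to 4 when 1 library was left out (0 without WT Refed liver 2). Bcl6 there ranged from -0.0024 to 2.46 on the log2 scale. Between genotypes 1 gene was called, against 24 by DESeq2, 24 by the exact test, 17 without the filter, 3 with filterByExpr, 3 with the GC trend removed, 2 with library size alone and 1 to 2 when 1 library was left out. Ghr changed sign there, to -0.059 by voomWithQualityWeights, -0.066 with the GC trend removed, -0.068 without both livers that stood apart, -0.0064 without WT Fasting liver 3 and -0.00066 without NAMPT LKO liver 5 (-0.0064 to 0.12 with 1 library left out), and Igfbp1 to 0.85 without WT Fasting liver 1 (-0.94 to 0.85). Against WT Refed livers NAMPT LKO Fasting livers had 1510 genes called, against 4281 by voomWithQualityWeights, 3329 without both livers that stood apart and 207 to 2835 when 1 library was left out. Of the 10 genes 4 were called, against 7 by voomWithQualityWeights and 0 to 5 when 1 library was left out. Igfbp4 changed sign to 0.014 by voomWithQualityWeights, 0.033 with the GC trend removed, 0.014 without WT Refed liver 1, 0.030 without NAMPT LKO liver 5 and 0.030 without both livers that stood apart (-0.061 to 0.030 with 1 library left out), and Bcl6 to 0.0037 by voomWithQualityWeights and 1.34 without WT Refed liver 1 (-1.12 to 1.34). The causes were not tested. The labels share numbers 1 to 3 between WT Fasting and NAMPT LKO livers, and deviations of same-numbered livers correlated at 0.08, 0.16 and 0.10, each the best match of its liver, which did not meet the limit of 0.1 for every pair. With the number as a replicate block 0 genes were called and Ghr was -0.074, and the same 6 libraries without the replicate block also gave 0 genes and -0.070. No other result for the 10 genes changed its call under the block. Depth limits Cish, with 13 reads in 1 WT Fasting liver, and Igfbp1, with 33 reads in 1 refed liver.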

Other observations

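In WT Refed livers 1 and 2, Socs2 was 16.9 and 36.8 CPM, Cish 9.99 and 12.3 CPM, and Bcl6 32.0 and 5.82 CPM. With 2 livers the difference between them was not tested. After sequence-composition trends were removed, Igfbp2 in NAMPT LKO liver 5 was 614 CPM, the highest of its group, where it had been the lowest at 374 CPM.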
